A study of Mus musculus with 8 samples.

Results

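The B-lineage precursors described here are bone marrow cells with transcripts of genes that mark entry into the B cell path. Whether a cell carried a finished B cell receptor was not assessed. They were chosen by measured values: a cell was taken when it held at least 1 unique molecular identifier (UMI, 1 captured transcript) of Cd79a and at least 2 UMIs in sum of Vpreb1, Vpreb3, Igll1 and Ebf1. This selected 175 of 29891 cells (0.585%; exact Clopper-Pearson 95% interval 0.502 to 0.679%, counting error only). The cells were KL cells, sorted from bone marrow as negative for lineage antigens, CD45R of the B lineage among them, and positive for CD117, the product of Kit. This gate sets how many B-lineage cells can be seen, so every share below is a share of sorted cells and not of marrow.

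The animals were female B6 mice of 3 to 4 months. Specific pathogen free (SPF) mice stayed in their clean facility, and conventional (CVT) mice were co-housed for a month in a conventional facility. The comparison asks what this housing altered among marrow progenitors. Each library pooled the marrow of 2 or 3 mice, with 4 SPF pools and 4 CVT pools of 10 mice per group, so the pool is the replicate and single mice cannot be told apart. By the animals' numbers the pools form a first set, pools 1 to 4, and a second, pools 5 to 8, each with 2 pools of either housing.

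In the marrow, lymphoid progenitors that express Flt3 and Dntt give rise to pro-B cells, in which Ebf1 and Pax5 set the B cell program and the recombinases Rag1 and Rag2 join the heavy chain gene segments. A finished heavy chain first pairs with the surrogate light chain, made of Vpreb1 or Vpreb2 together with Igll1, and signals through Cd79a and Cd79b as the pre-B cell receptor. Large pre-B cells divide, stop making the surrogate light chain and then rearrange a light chain gene.

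Promoters are shown for Cd79a, Vpreb1, Vpreb3 and Igll1 because these genes chose the cells. Ebf1, which also chose them, is not shown. Of 6 promoters looked for, 5 were found, that of Vpreb2 among them, and that of Cd79b was not. The 4 windows are of 300 bases from RefSeq on GRCm38.p6, each reaching just past the start of the gene and written along its strand. Capitals mark CAGGTG on either strand, the letters of an E-box. The windows are chr7:24897247-24897546 on the plus strand for Cd79a, chr16:16869206-16869505 on the minus strand for Vpreb1, chr10:75948050-75948349 on the plus strand for Vpreb3 and chr16:16863936-16864235 on the minus strand for Igll1.
Cd79a: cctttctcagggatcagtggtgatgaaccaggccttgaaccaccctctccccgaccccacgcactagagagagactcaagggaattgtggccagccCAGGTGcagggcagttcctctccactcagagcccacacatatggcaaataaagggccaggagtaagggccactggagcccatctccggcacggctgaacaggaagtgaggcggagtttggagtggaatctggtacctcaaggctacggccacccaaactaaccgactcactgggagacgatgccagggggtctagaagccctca
Vpreb1: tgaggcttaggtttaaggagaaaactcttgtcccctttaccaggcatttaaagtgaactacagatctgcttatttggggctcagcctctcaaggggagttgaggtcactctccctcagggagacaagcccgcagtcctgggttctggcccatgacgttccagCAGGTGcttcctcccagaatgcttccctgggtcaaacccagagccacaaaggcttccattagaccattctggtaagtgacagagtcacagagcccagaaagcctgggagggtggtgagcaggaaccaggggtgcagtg
Vpreb3: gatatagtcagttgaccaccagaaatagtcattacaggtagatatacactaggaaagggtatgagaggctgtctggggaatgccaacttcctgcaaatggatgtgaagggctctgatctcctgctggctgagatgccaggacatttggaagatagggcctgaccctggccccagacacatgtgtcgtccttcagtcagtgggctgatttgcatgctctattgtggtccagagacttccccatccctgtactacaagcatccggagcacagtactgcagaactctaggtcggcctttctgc
Igll1: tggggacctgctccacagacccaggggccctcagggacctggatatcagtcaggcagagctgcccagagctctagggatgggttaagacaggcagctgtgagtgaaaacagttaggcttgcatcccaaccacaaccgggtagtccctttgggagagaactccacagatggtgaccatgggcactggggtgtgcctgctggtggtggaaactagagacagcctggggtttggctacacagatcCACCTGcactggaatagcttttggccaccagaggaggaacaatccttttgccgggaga
CAGGTG was found once each in the Cd79a, Vpreb1, Igll1 and Vpreb2 windows and not in that of Vpreb3, and 20.2% of all 32851 promoters in the same collection hold it. CAGCTG was found in the Igll1 and Vpreb2 windows, against 16.3% of all promoters. CCCNNGGG was found in the Igll1 window, against 13.7%. Both strands were searched. A match describes letters in a window and is not a bound site.

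The 8 pools held between 1888 and 4845 cells and between 19041749 and 59812346 UMIs. Median depth per cell ran from 7529.5 UMIs in SPF pool 1 to 12771.5 in CVT pool 4. The precursors had a median of 6902 UMIs and 2293 genes, against 8980 UMIs and 2588 genes in the other cells.

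Of 6 B-lineage markers that the selection did not use, Cd79b, Pax5, Blnk, Rag1, Il7r and Pou2af1, at least 2 were detected in 168 of the 175 precursors (96%). The same was true of 264 of 2967 Dntt Flt3 progenitors (8.90%), the cells with a UMI of both genes that were not precursors, and of 11 of 4515 erythroid progenitors with Car1 and Ermap (0.244%), although the latter were deeper, with a median of 17879 UMIs. At the edge of the selection, the 4 precursors with exactly 2 UMIs of the summed genes all had at least 2 of these markers, as did 8 of the 11 precursors with exactly 1 Cd79a UMI (72.7%), where Pax5 was found in 9.09% and Pou2af1 in 18.2%. Among the 30 cells with Cd79a and exactly 1 such UMI, left outside, 4 had them. Genes outside the selection thus marked most of these cells as B-lineage cells. Most members lay well inside the limits, with 4 or more Cd79a UMIs in 152 cells and 10 or more UMIs of the summed genes in 153.

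Cd79a and Cd79b are the signalling pair of the receptor. Cd79a, a gene of the selection, stood at 16.3, 10.8, 16.3 and 10.5 UMIs per 10000 in SPF pools 1, 2, 7 and 8 and at 12.2, 11.02, 9.14 and 9.61 in CVT pools 3 to 6. Cd79b, outside it, stood at 8.26, 8.09, 10.7 and 7.11 in the SPF pools and at 8.38, 4.52, 6.12 and 5.52 in the CVT pools. The groups overlapped for both genes, for Cd79b only through CVT pool 3, which held 4 precursors. Cd79b was found in 97.1% of precursors, in 36.8% of Dntt Flt3 progenitors and in 10.6% of erythroid progenitors. Cd79a was found in 1.24% of erythroid progenitors. The source of these transcripts in erythroid cells was not tested.

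The surrogate light chain was present in part of the cells. Vpreb1 was detected in 52.6% of precursors, Igll1 in 50.9% and Vpreb2, which was not in the selection, in 24%. Erythroid progenitors showed 3.59%, 0.598% and 0%. Vpreb3, which binds immunoglobulin chains in the endoplasmic reticulum, was detected in 92%. In the pools, Vpreb1 stood at 8.99, 13.4, 9.50 and 8.23 UMIs per 10000 in SPF and at 11.4, 13.6, 11.1 and 7.35 in CVT. Igll1 stood at 7.16, 9.17, 5.98 and 7.11 in SPF and at 10.2, 7.77, 7.13 and 7.05 in CVT, and neither gene separated the housings. Vpreb3 stood at 26.4, 23.9, 26.6 and 20.28 in SPF and at 20.06, 15.2, 13.8 and 18.1 in CVT. All 4 SPF pools thus lay above all 4 CVT pools for this gene, which is a gene of the selection and gets no test. The immunoglobulin constant genes, Ighm and Igkc among them, were not analysed here.

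**Figure D1:**
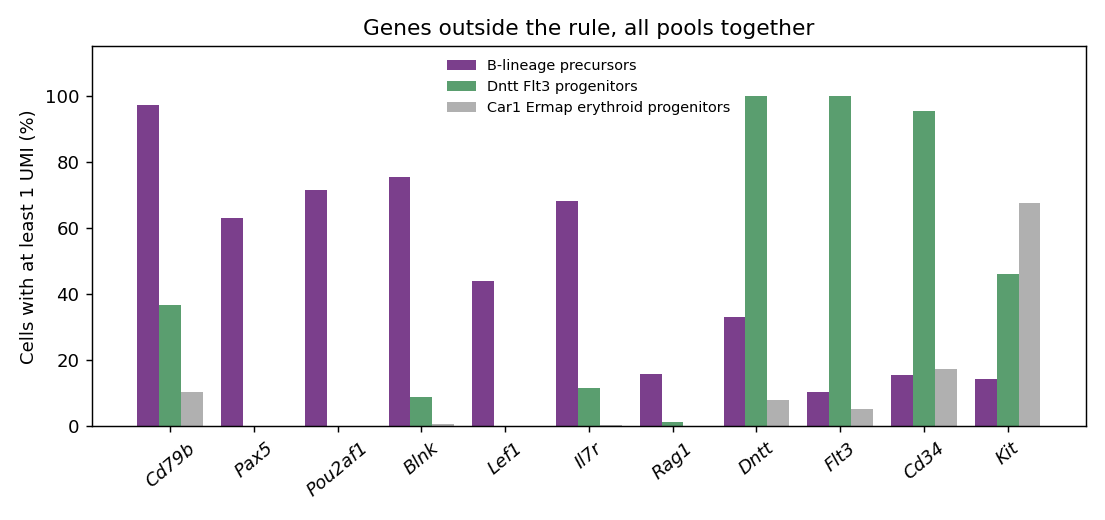
Percentage of cells with at least 1 UMI of 11 genes outside the selection of the precursors, for B-lineage precursors, Dntt Flt3 progenitors and Car1 Ermap erythroid progenitors, all pools together. Dntt and Flt3 chose the progenitors and stand at 100% there by that choice; Cd79b reached 97.1% of the precursors.

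Among the transcription factors, Pax5, which holds cells in the B lineage, was detected in 62.9% of precursors and in 0.0886% of erythroid progenitors. Pou2af1, a coactivator of immunoglobulin genes, was detected in 71.4%, Lef1, a factor of early pro-B cells, in 44%, Bach2, a repressor active at the pre-B stage, in 50.9%, and Irf4, which acts at the passage to light chain rearrangement, in 34.3%. Summed over the pools' precursors, Pax5 ran from 0.54 to 2.39 UMIs per 10000 with a median of 1.34. Tcf3, the E2A gene, was found in 84% of precursors but also in 76.8% of erythroid progenitors. The recombinase genes were sparse: Rag1 was detected in 16%, Rag2 in 19.4% and Dntt, the polymerase that adds bases at heavy chain joints, in 33.1%, against 7.86% for Dntt in the erythroid cells.

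Set against the Dntt Flt3 progenitors of the same 5 pools, those with at least 10 precursors, the precursors are described here with no test, because both populations were selected on expression. Of 4235 genes compared, which leave out the genes that chose either population, 118 had a mean ratio at least 4-fold higher and every pool higher (2.79%). For 103 the mean was at least 4-fold lower and every pool lower (2.43%), and the median log2 ratio of all genes was 0.01. The 11 genes with the highest ratio outside the selection were Pou2af1, Gm43291, Pax5, Mzb1, Slamf7, Id3, Cecr2, Lef1, Fcrla, Gm37065 and Akap12. Their mean log2 ratios ran from 7.54 for Pou2af1 to 6.15 for Akap12, a scaffold protein. Pou2af1 was at 199 ± 49.4 library-scaled counts (CPM; SD, n = 5 pools) in precursors and at 0.0448 ± 0.100 in the progenitors. Mzb1, a chaperone for immunoglobulin assembly, was at 578 ± 122 CPM against 4.05 ± 1.70.

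The 12 lowest genes were Ccl4, Ociad2, Cd34, Emilin1, Ldhb, Hoxa9, Gm19590, Fut7, Shisa8, Fbxw4, Hlf and Gcnt2. Cd34, a surface protein of progenitors, was at 42.0 ± 30.1 CPM in precursors and 400.1 ± 24.3 in the progenitors, a mean log2 ratio of -3.65. Hoxa9, a regulator of stem and progenitor cells, had a mean log2 ratio of -3.57 and Hlf, a stem cell factor, of -3.45. All 5 pools lay on the same side for each of the genes named in both directions. Kit, whose product the sort used, was detected in 14.3% of precursors, against 51.2% of the other cells.

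Of the 17 transcription factors compared, 7 met this limit upwards and none downwards, with a median log2 ratio of 0.31. Of the 15 genes of B cell signalling and surface, 7 met it upwards, with a median of 1.94; Blnk, the adaptor of the pre-B cell receptor, had a ratio of 4.32 and Cd24a, a surface protein of immature B cells, of 2.91. The lymphoid progenitor list split: of 12 genes, 2 met it upwards and 3 downwards, with a median of -1.54. Il7r, the receptor that drives growth of mouse pro-B cells, had a log2 ratio of 3.21 and Ly6d, a mark of B-committed lymphoid progenitors, of 3.86, while Satb1 had -2.58 and Notch1 -2.74.

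Division genes were high. The 19 genes of G2 and mitosis summed to 107.7, 56.3, 65.2 and 62.9 UMIs per 10000 in the precursors of SPF pools 1, 2, 7 and 8 and to 81.0, 58.5, 47.7 and 61.0 in CVT pools 3 to 6. Dntt Flt3 progenitors ran from 10.8 to 19.4, so the lowest pool of precursors lay above the highest pool of progenitors. Top2a, the decatenating topoisomerase, was the most abundant, with 13.5% of the sum. All 19 genes were higher in precursors in each of the 5 pools, and 7 had a mean at least 4-fold higher, with a median log2 ratio of 1.90. Replication genes of G1 and S phase ran from 22.9 to 35.6 in precursors and from 14.01 to 17.98 in progenitors. Ccnd3, the cyclin used by dividing pre-B cells, had a log2 ratio of 2.72, while Ccnd2 had -1.07, Myc -1.59 and the survival gene Bcl2 -2.20.

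The precursors were not uniform. Vpreb1 and Igll1, both genes of the selection, are described here from cell to cell with no test: 84 cells held both, 78 neither and 13 only 1 of them, and Spearman's rho over the 175 cells was 0.936 on UMIs per 10000, a description over cells that share libraries and depth. A count of at least 2 UMIs of both genes in sum, chosen after these values were seen, divided them into 88 cells with and 87 without surrogate light chain transcripts. Few cells lay near that line, with 9 at 1 UMI and 4 at 2 or 3. Of the 88 cells, 52 also held Dntt and 36 did not. Of the 87, 6 held it.

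The 52 cells with Dntt and surrogate light chain had the highest Lef1, at 2.33 UMIs per 10000 and in 78.8% of cells, and Rag1 in 36.5%. Ebf1, a gene of the selection, stood at 22.6. The 36 cells with surrogate light chain and no Dntt were deeper, with a median of 13387.5 UMIs, and held Cd24a at 23.7 against 7.45 in the first class. Ikzf3, a factor induced by the pre-B cell receptor, was detected in 33.3% of them and in 3.85% of the first class, and no Rag1 UMI was found in them. Each of these classes includes 2 cells of mixed content. The remaining class had a median of 5392 UMIs. It is described without its 11 cells of mixed content (high in granulocyte, monocyte or erythroid transcripts), which leaves 76 cells. Cd74, the invariant chain of MHC class II, was detected in 53.9% of these cells at 13.1 UMIs per 10000, Ms4a1, the CD20 gene, in 19.7% and Cd2 in 28.9%.

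With all cells of mixed content left out, 84 cells with surrogate light chain were set beside the 76 without, as a description. Among genes outside the selection with a UMI in at least 25% of a class, ranked by log2 ratio with 10 CPM added, Bfsp2 had the largest excess in the former, at 347 CPM against 19.3, followed by Vpreb2, Gfra2, Mt1 and Arpp21. Cd74 had the largest excess in the latter, at 1308 CPM against 20.6, followed by H2-Aa, H2-Eb1 and Ly6d. Next came Ifitm1, which was detected in fewer cells of the latter class (28.9%) than of the former (34.5%). In pools 5 to 8, which hold most of the cells, Cd74 stood at 10.6, 18.1, 21.9 and 3.58 UMIs per 10000 in the cells without surrogate light chain and at no more than 0.88 in those with it. Mki67, a mark of dividing cells, did not follow this line, at 3.88, 6.03, 4.80 and 4.99 without and 4.48, 3.53, 4.65 and 4.11 with. The depth gap between the classes was present beside these values and its part in them was not tested.

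**Figure D2:**
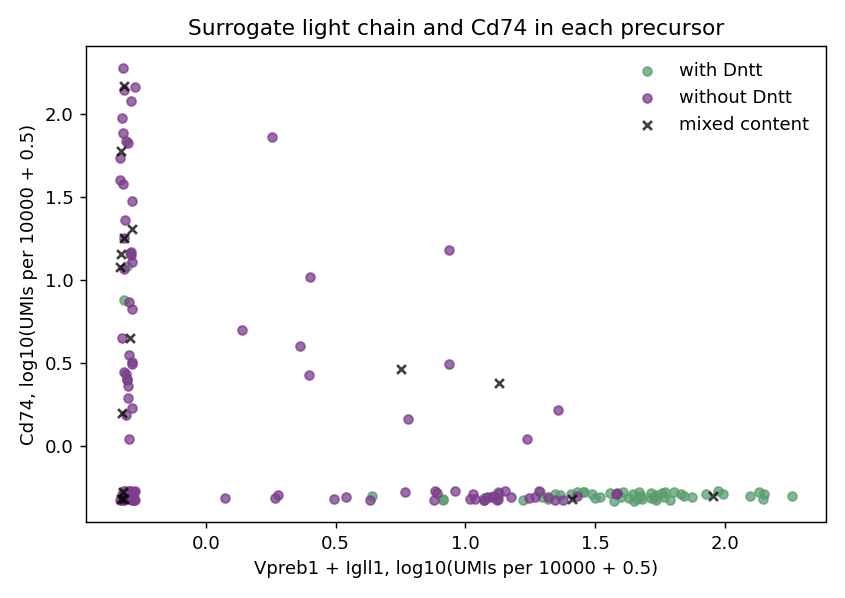
Each point is 1 of the 175 precursors, with the summed Vpreb1 and Igll1 on the horizontal axis and Cd74 on the vertical axis, both as log10 of UMIs per 10000 plus 0.5 with a small random shift to part equal values, colours marking Dntt and crosses the 15 cells of mixed content. Cells high in Cd74 lie mostly at the left edge, where surrogate light chain transcripts were not detected.

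Per pool, the share of precursors with surrogate light chain transcripts was 28.6, 54.5, 32.1 and 42.5% in SPF pools 1, 2, 7 and 8 and 75, 75, 52.9 and 62.8% in CVT pools 3 to 6. CVT averaged 66.4 ± 10.7% and SPF 39.4 ± 11.7% (SD, n = 4 pools each). CVT pool 5 lay below SPF pool 2, so the groups overlapped over all pools, while within each set both CVT pools lay above both SPF pools. SPF pool 1 and CVT pools 3 and 4 rest on 7, 4 and 8 precursors. Because the line was drawn after the values were seen, from genes that also chose the cells, no test is given. With each cell thinned to the same number of UMIs the shares were 28.6, 54.5, 28.6 and 40% in SPF and 50, 75, 50 and 51.2% in CVT, and the pools of the first set overlapped. The difference of the means was 27.0 percentage points as first given and 18.6 after thinning. Over the 5 pools with at least 10 precursors it was 14.8 without thinning, and the means after thinning were 50.6% in CVT and 41.04% in SPF.

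**Figure D3:**
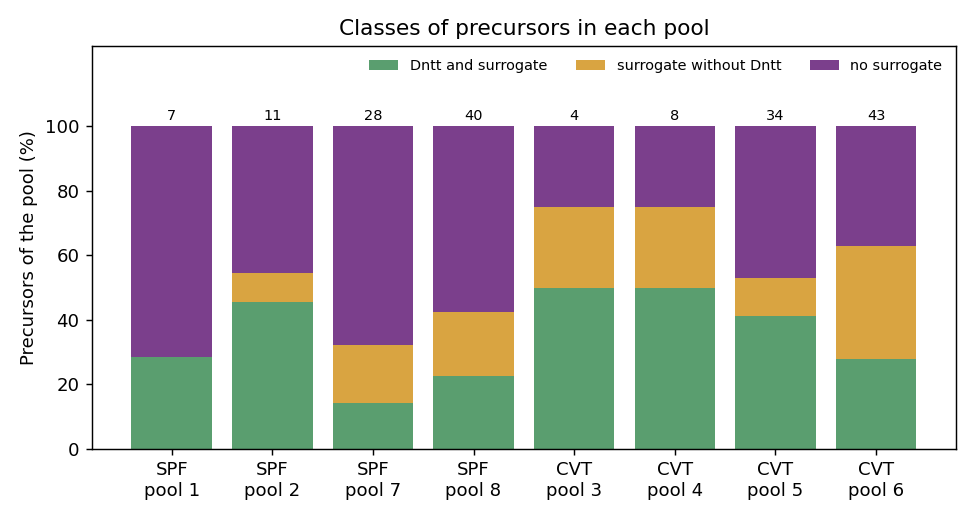
Percentage of each pool's precursors in 3 classes: with Dntt and surrogate light chain transcripts, with surrogate light chain transcripts only, and without them. The last class holds 5 of the 7 precursors of SPF pool 1, and the highest shares with surrogate light chain belong to CVT pools 3 and 4.

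The share of precursors among KL cells was 0.371, 0.286, 1.36 and 0.882% in SPF pools 1, 2, 7 and 8 and 0.0826, 0.192, 0.783 and 1.02% in CVT pools 3, 4, 5 and 6. The housings overlapped. CVT averaged 0.520 ± 0.456% and SPF 0.724 ± 0.497% (SD, n = 4), a difference of -0.204 percentage points by a two-sided exact permutation test over 70 regroupings (p = 0.514, adjusted p = 0.6 over 4 tests). The smallest p this design allows is 0.0286. Without SPF pool 7, the highest, the difference was 0.00739.

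What separated the pools was their set. Pools 1 to 4 held 30 precursors among 14754 cells and pools 5 to 8 held 145 among 15137, and each pool of the second set lay above each pool of the first, with a 4.35-fold higher mean share. Within the first set both SPF pools lay above both CVT pools, with means of 0.328 and 0.137%. Within the second they overlapped, with means of 1.12 and 0.904%. With regrouping held within the sets the exact permutation p was 0.167. The Dntt Flt3 progenitors, at 7.52 to 12.8% of cells, did not show this gap. Other values moved with the set: globin transcripts over all cells stood at 1.34 to 1.74 UMIs per 10000 in pools 1 to 4 and at 15.5 to 45.0 in pools 5 to 8, and cells with at least 3 UMIs of the neutrophil gene Retnlg made up 1.25 to 4.66% and 4.10 to 12.2%. Their part in this gap was not tested.

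**Figure D4:**
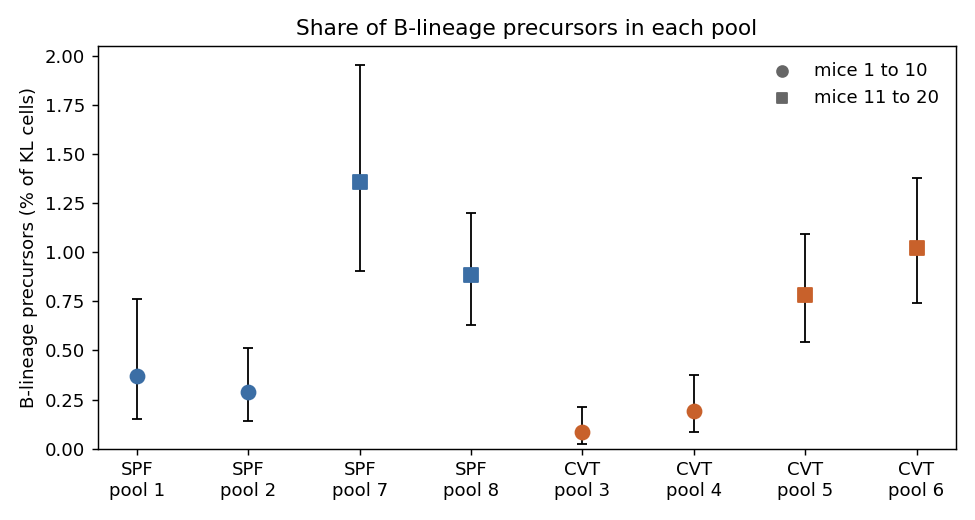
Share of B-lineage precursors among the KL cells of each pool, in percent, with exact 95% intervals that cover counting error only; circles are pools of mice 1 to 10 and squares pools of mice 11 to 20. The squares lie between 0.783 and 1.36% and the circles between 0.0826 and 0.371%.

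Per 100 Dntt Flt3 progenitors there were 4.93, 2.24, 11.8 and 9.26 precursors in the SPF pools and 0.760, 2.08, 9.14 and 11.3 in the CVT pools. The means were 5.81 ± 5.17 in CVT and 7.05 ± 4.27 in SPF (n = 4; exact permutation p = 0.6, adjusted p = 0.6), and the set of pools divided this ratio as it did the share. The difference of -1.24 turned to 0.445 without CVT pool 3, to 0.00379 without CVT pool 4 and to 0.334 without SPF pool 7, and was -4.86 when cells were thinned before both populations were chosen. Within the sets the means were 1.42 in CVT and 3.58 in SPF, then 10.2 and 10.5 (exact permutation p = 0.222).

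Inside the precursors, housing was compared over the pools with at least 10 of them, SPF pools 2, 7 and 8 and CVT pools 5 and 6; SPF pool 1 and CVT pools 3 and 4 were left out. After thinning, Dntt was detected in 36.4, 14.3 and 20% of precursors in the SPF pools and in 41.2 and 20.9% in the CVT pools, and without thinning in 45.5, 17.9 and 25% and in 47.1 and 32.6%. The groups overlapped, with means of 31.1 ± 14.3% in CVT (n = 2) and 23.5 ± 11.5% in SPF (n = 3) after thinning (exact permutation p = 0.4, adjusted p = 0.6). Without CVT pool 5 the difference turned to -2.62 percentage points. Among these 5 pools only SPF pool 2, of the first set, lay above a CVT pool. As a description with the small pools included, both CVT pools of each set lay above both SPF pools. They stood at 50 and 50% against 28.6 and 36.4%, then at 41.2 and 20.9% against 14.3 and 20%. SPF pool 1 and CVT pools 3 and 4 rest on 7, 4 and 8 precursors, and CVT pool 6 and SPF pool 8 lay close together. Over all 8 pools, tried once these values were known, the difference was 15.7 percentage points (exact permutation p = 0.114). The genes of G2 and mitosis averaged 54.3 ± 9.42 UMIs per 10000 in CVT (n = 2) and 61.5 ± 4.63 in SPF (n = 3; exact permutation p = 0.4, adjusted p = 0.6). With 10 regroupings no p below 0.2 can be had, so these tests could not have reached 0.05.

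Across genes, edgeR's quasi-likelihood test with Benjamini-Hochberg adjustment called 4 of 4185 genes higher in CVT precursors (0.0956%) and 0 lower (0%). An unadjusted p under 0.05 was found for 186 genes (4.44%), and DESeq2 called 4 higher and 0 lower. The 4 genes were Ltf, Camp, Chil3 and Ngp, which encode granule and secreted proteins of maturing neutrophils and are not B cell genes. Camp stood at 19.1 and 6.98 UMIs per 10000 in CVT pools 5 and 6 and at 0.755, 1.52 and 1.04 in SPF pools 2, 7 and 8, a log2 difference of 3.59 ± 0.36 (SE, adjusted p = 0.000147 by edgeR). Ltf had a log2 difference of 4.28 ± 0.42, Chil3 of 3.23 ± 0.42 and Ngp of 3.20 ± 0.37. CVT pools 5 and 6 lay above the 3 SPF pools for each. CVT pools 3 and 4, left out of the fit for few precursors, lay below every SPF pool for Camp (0.254 and 0.542) and Ngp (0.508 and 0.271). They did not for Ltf (0 and 0.181) and Chil3 (0.254 and 0), with SPF pool 1 at 0 for both genes. The count turned on single pools: 10 genes were called higher and 16 lower without CVT pool 5, 21 and 6 without CVT pool 6, 27 and 8 without SPF pool 7, and 8 and 2 without SPF pool 8. With 7 pools, those of at least 5 precursors, edgeR called 0 and 142 had an unadjusted p under 0.05, while Camp had a log2 difference of 3.11 and Ngp of 2.67.

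Most UMIs of these genes sat in few cells, although Camp was detected in 58.9% of the precursors and Ngp in 58.3%. In the Dntt Flt3 progenitors of the same pools Camp stood at 8.65 and 6.43 in CVT against 0.701, 2.97 and 1.14 in SPF, and Ngp at 6.61 and 4.61 against 0.535, 2.69 and 0.785, with the CVT pools the higher. Ltf overlapped there, at 0.993 and 0.695 in CVT against 0.0828, 0.734 and 0.135 in SPF, and Camp overlapped in erythroid progenitors and in all other cells. Of the 982 Camp UMIs in all precursors, 408 came from 1 cell, and 416 of the 928 Ngp UMIs likewise. In all, 15 precursors were of mixed content, defined after seeing the data as more than 100 UMIs per 10000 of the granulocyte and monocyte list or more than 50 of the erythroid list. Pools 5 to 8 held 4, 3, 5 and 3 of them and pools 1 to 4 none. Without them Camp stood at 1.57 and 1.65 in the CVT pools and 1.20, 0.955 and 0.755 in SPF pools 7, 8 and 2, and its log2 difference was 0.77. That of Ngp was 0.05, neither was called by edgeR, and Ltf and Chil3 had too few UMIs to be tested. That fit, added after the data were seen, called 10 genes higher, none of them among the 4, and 7 lower. Prtn3, a granule protease of early myeloid cells (2.44), Mpo, the myeloperoxidase gene (1.52), and Ctsg were among the 10. They belong to the list that decided which cells were left out, so their calls are no independent test. With all precursors of the 5 pools Prtn3 had a log2 difference of 0.44, Mpo of 0.35 and Ctsg of -0.37, none called by edgeR. Without SPF pool 8, with the mixed cells kept, edgeR called Prtn3 (3.29), Ctsg (2.73) and Mpo (2.53) higher. No doublet caller was run and no cell was removed, and the part of doublets was not tested.

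**Figure D5:**
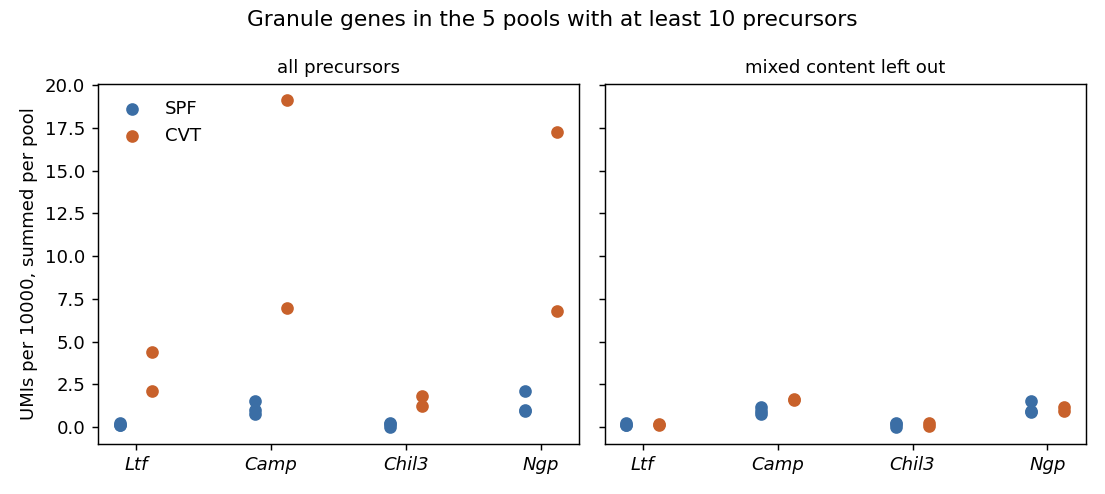
Ltf, Camp, Chil3 and Ngp in the precursors of the 5 pools with at least 10 precursors, as UMIs per 10000 summed over a pool, with all precursors on the left and without the 15 cells of mixed content on the right. CVT pools reach 19.1 for Camp on the left and no more than 1.65 on the right.

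Transcripts of granulocytes were detected in most cells of every kind looked at. S100a8 was detected in 97.1% of precursors and in 96.2% of erythroid progenitors, and the median of the granulocyte and monocyte list per cell was 8.05 to 15.7 UMIs per 10000 in the precursors of a pool and 7.55 to 12.9 in its erythroid progenitors. Summed over the precursors of a pool the list stood at 8.44, 8.41, 136 and 50.9 in SPF and at 11.7, 8.49, 136 and 74.6 in CVT, with S100a8 the most abundant gene at 45.0% of the sum. Of 13 T and innate lymphoid genes, 9 had a UMI in precursors, and the list summed to 1.48 UMIs per 10000, with Nkg7 70.6% of it, against 0.795 in erythroid progenitors. The plasmacytoid dendritic cell list summed to 2.42, with Bst2 47.0% of it, and the stem cell list to 0.255, with Mllt3 56.1% of it, against 1.56 and 0.713. Of their defining markers, Cd3e, Siglech, Cd209d, Klk1 and Procr were at 0 of 175 precursors, which allows a share of up to 1.71% of cells with a UMI. Others were present: Cd3d in 2.29% of precursors, Cd3g in 0.571%, Hlf in 5.71% and Mecom in 2.29%, against 0.443%, 0.111%, 5.20% and 1.86% of erythroid progenitors. Other genes of the lists above the erythroid share included Lck, a kinase of lymphocytes, in 17.1% against 1.86% and Cox6a2 in 6.29% against 1.46%. Ccr9, Tcf7 and Klrd1 were each found in 1.71%, against 0.354%, 0.244% and 0.487%, and Il2rb in 0.571% against 0.0664%. Nkg7, Bst2, Mllt3 and Zbtb16 were among those below it. These shares of cells are not corrected for depth, with medians of 6902 UMIs in precursors and 17879 in erythroid progenitors. Per 10000 UMIs the T and innate lymphoid list, mostly Nkg7, was the higher in precursors, as given above.

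With the 5 pools, no list of B cell genes held a gene called by edgeR. Jchain of the plasma cell list was called with no filter on low counts (10.9). It had 11.8 without CVT pool 5, where its call rested on a lone CVT pool. Jchain rests on 1 cell of CVT pool 6, which held 705 of its 707 UMIs. Under alternatives edgeR called Cd72, a B cell surface protein (-1.62), and Dntt (1.18) without CVT pool 6, Ms4a1 (-2.05) without CVT pool 5, and Ly6d (1.20) and Cd74 (1.15) without SPF pool 7. Ly6a, of the lymphoid progenitor list, was called without CVT pool 5 (3.44), without the mixed cells (3.02) and with no filter on low counts (2.78). Of the pre-B receptor genes outside the selection, Cd79b had a log2 difference of -0.49 ± 0.20 (edgeR adjusted p = 0.995) and Vpreb2 of 0.45 ± 0.45, and the genes that chose the cells are given no test. For Cd79b the CVT pools of the fit lay lower with no overlap, as for 9.03% of all genes, and for Vpreb2 the pools overlapped. The median over all genes tested was -0.0030. Of 18 transcription factors, Ebf1 of the selection among them, 10 lay above and 8 below 0, with a median of 0.03, and Pax5 had 0.05 ± 0.25. Of 17 signalling and surface genes, 13 lay below 0, with a median of -0.35. Of these 17, 5 had lower CVT pools with no overlap, as did 9.03% of all genes, and 1 had higher ones, as did 10.8% of all. The 19 division genes had a median of -0.11, the 11 lymphoid progenitor genes of 0.18 and the 9 of Il7 signalling and survival of 0.02. All 6 genes of later B stages lay below 0, with a median of -0.58, but the pools overlapped for each. SPF pool 7 was the highest pool for each of them. Cd74 stood at 1627 CPM there, at 177 and 232 in SPF pools 2 and 8, and at 478 and 473 in CVT pools 5 and 6. Its direction thus turned without SPF pool 7.

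Outside the B cell lists, the 7 immediate early genes tested all lay below 0, with a median of -0.91. The share of precursors with surrogate light chain, a split chosen after values were seen, averaged 57.9% in these CVT pools and 43.1% in the SPF pools. The pools overlapped, and after thinning the means were 50.6 and 41.04%. Fos stood at 1.20 UMIs per 10000 in the class without surrogate light chain and at 0.175 and 0.244 in the others. Ier2 did not follow, at 0.754 without it and 1.20 in the class with Dntt. The part of class share was not tested. Junb, 1 of the 7 fast-induced genes, had a log2 difference of -1.72 ± 0.42 (edgeR adjusted p = 0.381). It was called lower without CVT pool 5 (-2.37) and with no filter on low counts (-1.67). Of 8 interferon genes, 6 lay above 0, with a median of 0.72, while Ifi27l2a, the most abundant of the list, had -0.81 and Ifitm1 -1.27. Ifitm1 was called lower without SPF pool 7 and with no filter. It had -1.56 without CVT pool 5, where its call rested on a lone CVT pool. Ifitm3 of the same list went the other way, at 0.87 with the CVT pools higher and apart. Ifitm3 was called higher without SPF pool 7 (1.04) and without the mixed cells (1.31). It had 1.19 without CVT pool 6, where its call likewise rested on a lone CVT pool. Summed, the interferon list stood at 14.1 and 11.6 UMIs per 10000 in CVT pools 5 and 6 and at 13.4, 16.6 and 11.1 in SPF pools 2, 7 and 8, so the sums overlapped. By the rule for genes that did not pass, Aqp1, Cyp4f18, Eif2ak1, Apoe and Junb had the lowest differences with pools apart, from -3.75 for Aqp1 to -1.72 for Junb. With each pool left out, Aqp1 ran from -5.86 to -2.74 over the 2 fits that tested it, Eif2ak1 from -2.73 to -1.88, also over 2 fits, Cyp4f18 from -3.48 to -1.55 and Junb from -2.37 to -1.16. Apoe, an apolipoprotein gene, stood at -1.74 (edgeR adjusted p = 0.272), and at -1.65 with adjusted p = 0.0464 by edgeR without the mixed cells. It was called lower under 6 of the alternatives, and ran from -2.62 to -1.31 with each pool left out.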

How the data were processed

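UMI counts per gene and cell, as deposited by the authors in 1 table of 27998 genes and 29891 cells, came from droplet 3' libraries; the submitters' processing notes name Cell Ranger and mm9. The number ending a cell name was taken as its pool, in the order of the sample descriptions, which no deposited file states. The members and gene lists were chosen with earlier results of these data known. No cell was filtered out and no doublet caller was run. Barcodes found in more than 1 pool numbered 522; 8 precursors carried one, and no 2 precursors shared one. Counts were summed per pool and fitted with edgeR 4.0.16 in R 4.3.3 (TMM, filterByExpr, quasi-likelihood, Benjamini-Hochberg) over pools with at least 10 precursors; DESeq2 1.42.0 was an alternative. Shares were compared over pools by two-sided exact permutation. For the test of the share with Dntt, each cell was thinned to 2759 UMIs, the smallest total, so none was left out. Shares with surrogate light chain are given without thinning first and with it as an alternative, and the classes without it. Ratios to progenitors used CPM with 1 added. Genes were named by size: up to 10 per direction past adjusted p 0.05, or, with fewer than 3, the 5 largest with unadjusted p under 0.05 and pools apart; against progenitors, up to 12 highest and 12 lowest with a UMI in at least 25% of cells. Fits were tested on simulated data. The mice of a pool are not separable, so p-values measure the spread between pools. Alternatives changed the selection, thinning, cell filter, normalization, gene filter, tool, set of pools and pools used.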

Additional observations from a re-analysis of the deposited data

Results flagged for a closer look

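In 50 groups of 4 pools looked at for a pool far from its group, 6 stood apart, where chance gives about 1 in 20. The share of precursors with Dntt was 32.6% in CVT pool 6, against 47.1, 50 and 50% in the other CVT pools. The plasma cell list stood at 24.7 UMIs per 10000 in CVT pool 6, against 5.35 to 6.35 in the others; 705 of the 707 Jchain UMIs in all precursors came from 1 cell of that pool. The erythroid list stood at 65.8 in CVT pool 5, against 1.27 to 8.13, and at 46.8 in SPF pool 7, against 1.28 to 3.70. The megakaryocyte list stood at 1.73 in SPF pool 2, against 0 to 0.177, and the list of Il7 signalling and survival at 12.9 in CVT pool 4, against 11.9 to 12.1. No cause was tested.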

How the results depend on the processing

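The difference in the share of precursors (-0.204 percentage points) ran from -0.371 to 0.00739 with each pool left out, and turned to 0.00739 without SPF pool 7. Per 100 Dntt Flt3 progenitors the difference ran from -3.05 to 0.445, turning to 0.445 without CVT pool 3, to 0.00379 without CVT pool 4 and to 0.334 without SPF pool 7. The Dntt difference ran from -2.62 to 17.6, turning to -2.62 without CVT pool 5, and was 15.7 over all 8 pools. That of G2 and mitosis genes ran from -13.8 to -0.487 and was -11.0 over all 8 pools. It was -2.02 with a stricter selection, at least 2 UMIs of Cd79a and 3 in sum of the other genes. No alternative to these 4 results passed the threshold, and those over 5 pools could not. Thinning before the choice of cells gave -4.86 per 100 progenitors. The edgeR counts moved most: with each pool left out, 4 to 27 genes were called higher in CVT and 0 to 16 lower, a lone CVT pool being assumed to vary like the others. They were 17 and 10 with no filter on low counts, 10 and 7 without cells of mixed content, and 0 higher with at least 5 precursors per pool; the cause was not tested. With set of pools as a block, 4 were called higher and 0 lower. Leaving out precursors with 3 UMIs of another lineage kept 4 cells, too few to fit expression, Dntt or G2 and mitosis genes. Against the Dntt Flt3 progenitors, 104 to 130 genes were higher and 75 to 127 lower with each pool left out. The few precursors per pool limit all housing comparisons. No paired analysis was possible because the labels give each pool mice of its own, and replicate numbers only count the pools of a group.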

Other observations

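Of the precursors, 14 held over 20000 UMIs, up to 42214, and the mixed cells had a median of 5584 UMIs against 7040 in the rest. Of the 107 cells with no Cd79a and at least 2 UMIs of the other selecting genes, left outside, 20 had at least 2 of the 6 markers, Il7r in 25.2% and Pax5 in 0. Socs2, induced by cytokine signals, was detected in 30.9% of precursors and 3.34% of Dntt Flt3 progenitors.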
